A study of Mus musculus with 16 samples.

Results

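The 29 synaptic adhesion and organizer genes described here were taken by symbol from the count table of olfactory bulb (OB) microglia: 29 of the 57010 genes in the table, all of which passed the low-count filter that left 18227 genes for testing. They are 2 neurexins, 9 neurexin partners, 6 leucine-rich repeat (LRR) and Il1rapl organizers, 2 adhesion G protein-coupled receptors, 3 cadherin, catenin and scaffold genes, and 7 immunoglobulin, contactin and matrix genes. Total RNA was sequenced from cells isolated with CD11b magnetic beads from the OB of mice aged 2 months. WT mice were C57BL/6J, and APP-NL-G-F mice (knock-in, KI) were homozygous, on the same background, for the allele whose amyloid precursor protein has a humanised amyloid-beta sequence with the Swedish, Beyreuther/Iberian and Arctic mutations. The mouse App promoter drives the allele, in neurons and other cells alike, and the mice received no treatment that the labels name. Each of the 4 groups (WT females, WT males, KI females, KI males) had 4 libraries, 16 in all, with totals of 9052932 to 18117286 counts. The microglia isolated for this experiment were counted in as many mice per genotype as there are libraries, but the sources used here do not tie each library to 1 mouse, so p-values measure the spread between these libraries.

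Synaptic adhesion molecules hold the presynaptic and postsynaptic membranes together and recruit the release machinery and the receptors to opposite sides of the cleft. Neurexins sit on the axon terminal and bind neuroligins, LRRTM proteins and, through secreted cerebellins, glutamate receptor delta proteins. A further set of postsynaptic LRR proteins and Il1rapl1 binds presynaptic receptor phosphatases or netrin-G proteins. In the OB the granule and periglomerular cells are inhibitory neurons that form reciprocal dendrodendritic synapses with mitral and tufted cells, and new ones arrive throughout life as neuroblasts. These genes are known chiefly from neurons and some from glia such as oligodendrocytes. Microglia are the macrophages of the brain parenchyma and engulf synaptic material.

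The label of the libraries was checked against cell type markers. The 10 microglia markers, among them P2ry12, Tmem119 and Csf1r, summed to between 19844 and 23554 CPM (counts scaled to library size, TMM-normalised) in a library, and none was at 0. Csf1r, the receptor for colony-stimulating factor, was the most abundant of them at 5657 CPM. RNA of other cells was present as well. The 12 pan-neuronal markers summed to between 378 and 660.0 CPM in a library, with Map2, which encodes a microtubule protein of dendrites, the most abundant at 192 CPM and none at 0. The 12 markers of OB inhibitory neurons summed to between 199 and 461 CPM, with Gad1, the GABA-synthesising enzyme, highest at 109 CPM and none at 0. The 29 synaptic adhesion genes summed to between 511 and 1086 CPM. In bulk libraries, more cells of a type and more RNA per cell cannot be told apart.

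Among the members, the level per kilobase of exon in WT was highest for Nrxn3, at 12.2 CPM per kb. Ncam1 followed at 8.22 and Nrxn2 at 7.602 CPM per kb, then Dscam at 3.64, Nfasc at 3.44 and Nlgn2 at 3.38 CPM per kb. The lowest levels per kilobase were those of Cbln2 at 0.0928, Lrrtm2 at 0.263 and Lrrtm1 at 0.274 CPM per kb. The spread from the highest to the lowest thus covered more than a factor of 100. Cbln2 had 0 to 18 counts per library. Its 0 in WT female 2 allows up to 0.331 CPM of that library's total.

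Every member had a positive log2 fold change in KI relative to WT over both sexes, from 0.060 for Lrrtm1 to 0.82 for Il1rapl1 and Slitrk3, with a median of 0.49. Over all 18227 genes the median was -0.0014 and 49.6% were above 0. In the test, edgeR's quasi-likelihood test with sex as a term and Benjamini-Hochberg adjustment over all genes, 12 of the 29 rose at FDR below 0.1 and a log2 fold change above 0.5, and none fell. Across all genes 4.33% rose by this rule. The members were chosen with earlier results of these data known, so these shares are a description and not a test of the list. The 12 were Nlgn1, Nlgn3, Lrrtm3, Lrrtm4, Slitrk1, Slitrk3, Lrfn3, Lrfn5, Il1rapl1, Adgrb3, Magi2 and Dscam. The exact permutation test, which exchanges genotype within sex and was adjusted over all genes, fell below 0.1 for 4 of these 12 (Nlgn1 0.0781, Nlgn3 0.0234, Slitrk1 0.0559 and Il1rapl1 0.0992) and lay between 0.101 and 0.186 for the other 8. It was also below 0.1 for Cbln2, Lrrc4 and Ncam2, against 10.3% of all genes either way, and of the 1574 genes called by edgeR 73.1% were below 0.1. At edgeR's FDR alone 19 were higher, against 6.95% of all genes; the 7 under the fold threshold were Lrrc4, Adgrl3, Cdh10, Ctnna2, Ncam2, Nfasc and Tnr.

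**Figure D1:**
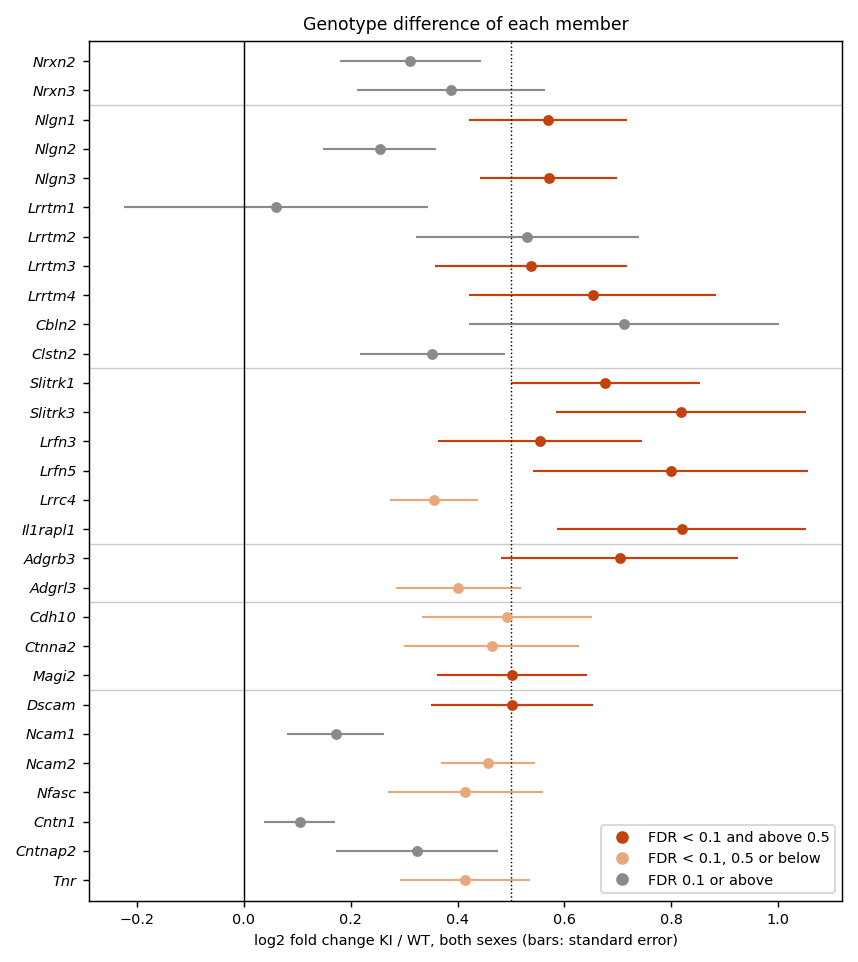
Log2 fold change of KI over WT (horizontal axis) for each of the 29 genes (rows, grouped by role with lines between groups); points are estimates over both sexes with SE bars, and the dotted line marks 0.5. All 29 points lie to the right of 0, with dark orange for the 12 that passed both thresholds.

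Some neuronal markers rose beside them. The pan-neuronal list had a median log2 fold change of 0.20, with 11 of 12 above 0, none past both thresholds and 4 higher at the FDR alone (Snap25, Syt1, Map2 and Celf4), and its sum was 452 ± 42.1 CPM in WT and 570 ± 68.5 CPM in KI (mean ± SD, n = 8). The OB inhibitory neuron list had a median of 0.38, 11 of 12 above 0 and 4 that passed (Meis2, Dlx6, Synpr and Penk), and its sum was 262 ± 54.3 CPM in WT and 367 ± 62.4 CPM in KI. Of 6 neuroblast markers 3 passed (Dcx, Igfbpl1 and Dlx6os1), with a median of 0.56. The projection neuron list had a median of -0.059 over 7 genes tested, with none passing, from 0.45 in females (6 of 7 above 0) and -0.42 in males (2 of 7 above 0). Its sum was 43.8 CPM in WT female 1 and 43.9 CPM in WT female 2 and lay between 107 and 197 CPM in the other 6 WT libraries; its most abundant gene was Reln, and Lhx5 was at 0 in most libraries. The microglia list had a median of 0.0073 with none passing.

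Markers of glia and vessels were mixed. Of 8 oligodendrocyte markers 1 passed (Mog, a myelin protein), 8 were above 0 and the median was 0.38; their sum was 289 ± 69.7 CPM in WT and 359 ± 46.3 CPM in KI, and Opalin was at 0 in WT male 1. The median was 0.25 for 6 oligodendrocyte precursor markers, 0.023 for 8 of olfactory ensheathing cells, -0.20 for 8 of astrocytes, -0.16 for 10 of endothelial cells and 0.095 for 7 of border macrophages, with none passing in these lists. The endothelial list had a median of -1.02 in females and 0.82 in males, and the astrocyte list -0.58 in females, with none of 8 above 0, and 0.15 in males. WT females 1 and 2 stood apart here as well: their astrocyte sums were 990 and 1184 CPM against 580 to 723 CPM in the other WT libraries, and their endothelial sums 181 and 227 CPM against 69.03 to 135 CPM. The part of these cells in the values of the 29 genes was not tested.

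Neuron markers were also put into the fit. When the mean log2 CPM of the pan-neuronal markers was added to the fit as a covariate, the median of the synaptic adhesion genes was 0.29 and 0 of the 29 passed. With the inhibitory neuron markers as the covariate, a fit added after the data were seen, the median was -0.030 and again 0 passed. These covariates also took the number of all genes called either way from 1574 to 312 and to 38. Both marker sums were higher in KI on average, and a covariate that differs between the genotypes removes difference by construction. These fits therefore cannot tell how much of the rise is neuronal RNA.

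**Figure D2:**
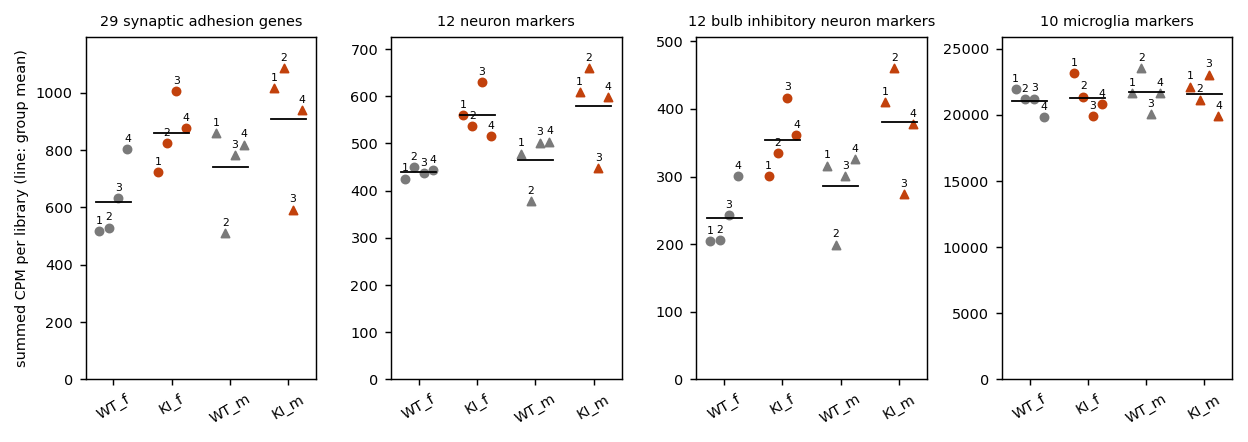
Summed CPM in each library (points numbered by replicate, lines at group means, axes from 0) of the 29 synaptic adhesion genes, 12 neuron markers, 12 OB inhibitory neuron markers and 10 microglia markers, by genotype and sex (f, female; m, male). WT male 2 and KI male 3 are the lowest of their groups in the first 3 panels and the highest of their groups in the microglia panel.

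The libraries did not differ alike. KI male 3 was the lowest of the 8 KI libraries for 23 of the 29 genes, and KI male 2 was the highest for 15. Among WT, male 2 was lowest for 11, female 2 for 10 and female 1 for 6, whereas male 3 was highest for 12 and male 1 for 11. The inhibitory neuron markers were lowest in the same WT libraries, at 199 CPM in WT male 2, 204 in WT female 1 and 206 in WT female 2, and ran from 274 CPM in KI male 3 to 461 CPM in KI male 2 among KI. The other neuronal sums did not share this order throughout. The pan-neuronal sum was also lowest in WT male 2 at 378 CPM, but WT female 2 at 449 CPM lay above WT females 3 and 4 at 437 and 443 CPM, and the projection neuron sum of WT male 2 was among the highest of WT at 192 CPM. The part of neuronal RNA in these differences between libraries was not tested. Without WT male 2 and KI male 3 together, also a choice made after the data were seen, 12 members passed and the median was 0.47. There 1796 of all genes were called. Without WT females 1 and 2 together, a choice of the same kind, 3 passed (Nlgn1, Nlgn3 and Slitrk1), the median was 0.39 and 28 were above 0. Leaving out single libraries gave 4 members passing without KI male 2, 5 without WT female 1, WT female 2, WT male 2 or KI female 3, 6 without WT female 3, 7 without KI female 4 or KI male 1, and up to 17 without KI male 3. All genes called either way also ranged from 1101 without KI male 2 to 2187 without KI male 3. The median of the members stayed between 0.42 and 0.57 over these 16 fits. Of the 12 calls, those of Slitrk1, Slitrk3 and Il1rapl1 passed in all 16, Nlgn1 and Nlgn3 in 15, Lrfn5 in 10, Adgrb3 in 9, Lrrtm4 in 8, Lrfn3, Magi2 and Dscam in 7 and Lrrtm3 in 6.

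**Figure D3:**
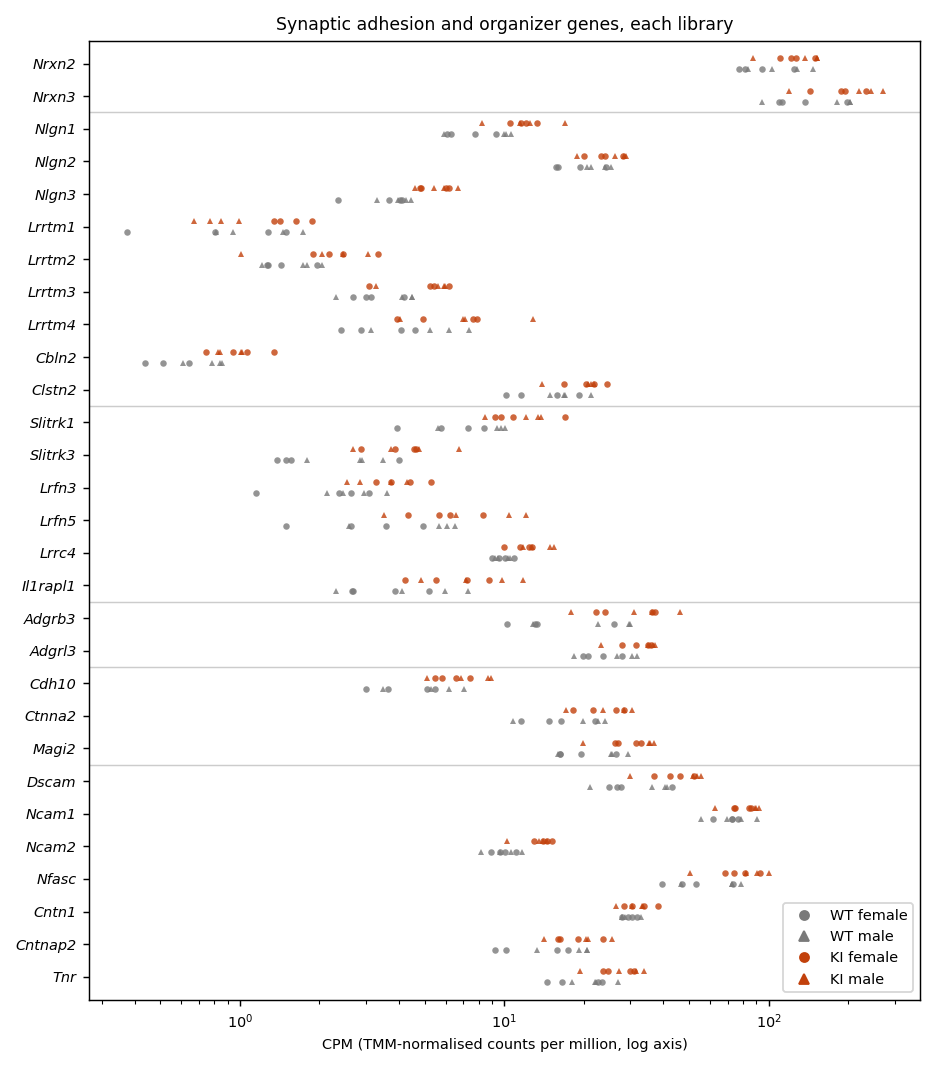
CPM (log axis) of each gene (rows, grouped by role) in each of the 16 libraries; grey symbols are WT, orange are KI, circles females and triangles males. The orange symbols lie to the right of the grey ones in most rows but overlap with them in every row other than Nlgn3, and the lowest orange triangle is usually the same library; the 0 of Cbln2 in WT female 2 is not drawn.

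The neurexins, presynaptic receptors with long genes, did not pass. Nrxn3 (chr12:88689646-90301709, plus strand, GRCm39), the highest member per kilobase, measured 109, 112, 137 and 198 CPM in WT females, 203, 94.7, 181 and 202 in WT males, 144, 189, 234 and 194 in KI females and 243, 270.0, 119 and 219.6 in KI males. The genotypes overlapped over most of their range (log2 fold change 0.39, SE 0.18, FDR 0.184). Nrxn2 averaged 105 ± 25.7 CPM in WT and 129.7 ± 23.1 CPM in KI (log2 fold change 0.31, SE 0.13, FDR 0.153; SD, n = 8).

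Among the neuroligins, the postsynaptic partners of neurexins, Nlgn3 and Nlgn1 rose and Nlgn2 did not pass. Nlgn3 measured 4.12, 4.04, 2.35 and 3.67 CPM in WT females, 4.45, 3.31, 4.25 and 3.96 in WT males, 4.81, 6.19, 6.02 and 4.86 in KI females and 5.95, 6.69, 4.61 and 5.403 in KI males. Nlgn3, on the X chromosome (chrX:100342750-100369570, plus strand), was the 1 member for which every KI library lay above every WT library, which held for 0.137% of all genes (log2 fold change 0.57, SE 0.13, FDR 0.00913). Exchanging genotype within sex gave an exact permutation p of 0.000408, the smallest that 4900 splits can give, and 0.0234 after adjustment over all genes. Nlgn1 measured 6.06, 7.74, 6.27 and 9.300 CPM in WT females, 10.01, 5.898, 10.6 and 10.1 in WT males, 10.5, 11.6, 13.3 and 12.1 in KI females and 12.5, 16.9, 8.22 and 11.4 in KI males. For Nlgn1, a neuroligin of excitatory synapses, 7 of 8 KI libraries were above the WT median, and KI male 3 and, just under the highest WT library, KI female 1 lay inside the WT range (log2 fold change 0.57, SE 0.15, FDR 0.0212). Nlgn2, the neuroligin of inhibitory synapses, averaged 20.8 ± 3.701 CPM in WT and 24.7 ± 3.86 CPM in KI (log2 fold change 0.25, SE 0.11, FDR 0.142; SD, n = 8).

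The LRRTM genes encode postsynaptic LRR proteins that bind neurexins. Lrrtm3 and Lrrtm4 rose and Lrrtm1 and Lrrtm2 did not pass. Lrrtm4 measured 2.87, 2.42, 4.06 and 4.61 CPM in WT females, 5.22, 3.15, 7.39 and 6.19 in WT males, 3.94, 4.92, 7.65 and 7.92 in KI females and 6.97, 12.9, 4.02 and 7.09 in KI males. KI male 2 had by far the most Lrrtm4, females 3 and 4 also lay above every WT library, and the other 5 overlapped with WT (log2 fold change 0.65, SE 0.23, FDR 0.0843). Lrrtm3 measured 2.69, 3.002, 3.14 and 4.18 CPM in WT females, 4.11, 2.303, 4.48 and 4.46 in WT males, 3.07, 5.44, 6.19 and 5.23 in KI females and 5.61, 5.95, 3.27 and 5.89 in KI males. In Lrrtm3 the lowest KI libraries, female 1 and male 3, lay within the WT range and the other 6 above it (log2 fold change 0.54, SE 0.18, FDR 0.0673). Lrrtm2 averaged 1.59 ± 0.333 CPM in WT and 2.302 ± 0.7203 CPM in KI (log2 fold change 0.53, SE 0.21, FDR 0.121; SD, n = 8). Lrrtm1 averaged 1.11 ± 0.454 CPM in WT and 1.19 ± 0.437 CPM in KI, with 4 of 8 KI libraries above the WT median (log2 fold change 0.06, SE 0.29, FDR 0.936).

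Lrrtm1, Lrrtm2 and Lrrtm3 each lie inside an alpha-catenin gene, on the opposite strand, so the counting of strand matters for them. Which strand column of the counts was deposited is not stated in the sources used here. Lrrtm1 lies in Ctnna2, which had a log2 fold change of 0.46 against 0.060 for Lrrtm1. Lrrtm2 lies in Ctnna1, at -0.066 against 0.53. Lrrtm3 lies in Ctnna3, at 1.13 (SE 0.39, FDR 0.077) against 0.54. Ctnna3 was scarce, at 0.299 CPM in WT and 0.677 CPM in KI, while Lrrtm3 averaged 3.54 and 5.08 CPM. The LRRTM genes and their hosts were not tested against each other.

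Cbln2 encodes a secreted bridge between neurexins and delta receptors, and Clstn2 a postsynaptic calsyntenin. Cbln2 averaged 0.585 ± 0.281 CPM in WT and 0.975 ± 0.186 CPM in KI, and all 8 KI libraries were above the WT median (log2 fold change 0.71, SE 0.29, FDR 0.134; SD, n = 8). The exact permutation p of Cbln2 was 0.00245, adjusted to 0.0486 over all genes, below 0.1 where edgeR's FDR was not. Clstn2 averaged 15.8 ± 3.66 CPM in WT and 20.2 ± 3.28 CPM in KI (log2 fold change 0.35, SE 0.14, FDR 0.112).

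Of the 6 LRR and Il1rapl organizers 5 rose, and their log2 fold changes ran from 0.36 for Lrrc4 to 0.82, with a median of 0.74. The groups of members were not tested against each other. Il1rapl1 measured 2.69, 2.66, 3.85 and 5.205 CPM in WT females, 4.11, 2.303, 7.27 and 5.98 in WT males, 4.21, 5.51, 8.77 and 7.25 in KI females and 9.77, 11.7, 4.86 and 7.16 in KI males. Il1rapl1, a partner of the presynaptic phosphatase PTP-delta, was above the WT median in all 8 KI libraries, though only KI female 3 and KI males 1 and 2 lay above every WT library (log2 fold change 0.82, SE 0.23, FDR 0.0340). Slitrk3 measured 1.56, 1.39, 1.497 and 4.01 CPM in WT females, 2.91, 1.797, 3.47 and 2.84 in WT males, 2.87, 3.88, 4.64 and 4.56 in KI females and 4.76, 6.77, 2.68 and 3.72 in KI males. Slitrk3, an organizer of inhibitory synapses, was below every KI library in 4 WT libraries and within the KI range in the other 4 (log2 fold change 0.82, SE 0.23, FDR 0.0344). Slitrk1 measured 3.93, 5.77, 7.27 and 8.36 CPM in WT females, 9.41, 5.62, 10.1 and 9.74 in WT males, 9.22, 9.76, 17.03 and 10.8 in KI females and 13.8, 13.5, 8.47 and 12.1 in KI males. Slitrk1, its relative with a single exon, was highest in KI female 3, and KI females 1 and 2 and KI male 3 lay inside the WT range (log2 fold change 0.68, SE 0.18, FDR 0.0220).

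The Lrfn genes encode SALM proteins, which bind the postsynaptic scaffold PSD-95 or presynaptic phosphatases. Lrfn5 measured 2.62, 1.501, 3.56 and 4.95 CPM in WT females, 6.07, 2.58, 6.49 and 5.68 in WT males, 4.34, 6.26, 8.34 and 5.68 in KI females and 10.4, 12.1, 3.52 and 6.596 in KI males. The Lrfn5 level varied more than 4-fold among WT libraries, and 4 of 8 KI libraries lay above all of them (log2 fold change 0.80, SE 0.26, FDR 0.0585). Lrfn3 measured 2.37, 1.15, 2.64 and 3.07 CPM in WT females, 3.59, 2.13, 2.46 and 2.94 in WT males, 3.27, 3.73, 4.39 and 5.31 in KI females and 2.55, 4.296, 2.85 and 3.72 in KI males. For Lrfn3, KI female 1 and KI males 1 and 3 lay inside the WT range (log2 fold change 0.55, SE 0.19, FDR 0.0751). Lrrc4, also known as NGL-2, a partner of netrin-G2, averaged 9.88 ± 0.675 CPM in WT and 12.7 ± 1.77 CPM in KI; it was above the WT median in all 8 KI libraries but under the fold threshold (log2 fold change 0.36, SE 0.083, FDR 0.0112; SD, n = 8).

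Of the adhesion G protein-coupled receptors, Adgrb3, which binds secreted C1q-like proteins, rose. Adgrb3 measured 13.1, 10.3, 13.3 and 26.1 CPM in WT females, 22.7, 12.8, 29.99 and 29.6 in WT males, 22.2, 24.1, 37.3 and 36.3 in KI females and 36.4, 46.3, 17.9 and 30.9 in KI males. WT males 1, 3 and 4 and WT female 4 lay among the KI values of Adgrb3, and the other 4 WT libraries lay below all of them (log2 fold change 0.70, SE 0.22, FDR 0.0536). Adgrl3, latrophilin-3, a receptor for FLRT proteins and teneurins, averaged 24.9 ± 5.05 CPM in WT and 32.7 ± 4.89 CPM in KI and was under the fold threshold (log2 fold change 0.40, SE 0.12, FDR 0.0384; SD, n = 8).

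Magi2 encodes a postsynaptic scaffold that binds neuroligins, and it rose just past the fold threshold. Magi2 measured 16.3, 16.3, 19.5 and 26.5 CPM in WT females, 25.4, 15.95, 25.5 and 29.4 in WT males, 26.3, 31.5, 33.02 and 27.1 in KI females and 35.3, 36.8, 19.9 and 35.6 in KI males. KI male 3 stood below the other KI libraries, and it and KI females 1 and 4 lay inside the WT range (log2 fold change 0.50, SE 0.14, FDR 0.0310). Ctnna2, neuronal alpha-catenin, averaged 17.8 ± 5.12 CPM in WT and 24.3 ± 4.91 CPM in KI (log2 fold change 0.46, SE 0.16, FDR 0.0835; SD, n = 8). Cdh10, a type II cadherin, averaged 4.91 ± 1.42 CPM in WT and 6.86 ± 1.41 CPM in KI (log2 fold change 0.49, SE 0.16, FDR 0.0601).

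Dscam, a homophilic immunoglobulin receptor of neurites, was the 1 of 7 immunoglobulin, contactin and matrix genes that passed both thresholds. Dscam measured 24.9, 26.7, 27.6 and 43.1 CPM in WT females, 41.4, 21.1, 36.3 and 40.5 in WT males, 36.7, 42.4, 52.2 and 46.4 in KI females and 53.4, 55.4, 29.8 and 51.8 in KI males. As with Magi2, WT female 4 and the WT males other than male 2 overlapped with KI (log2 fold change 0.50, SE 0.15, FDR 0.0443). Ncam2, an adhesion molecule known from olfactory axons, had the lowest FDR of all members but a fold change below the threshold: it averaged 9.98 ± 1.13 CPM in WT and 13.6 ± 1.52 CPM in KI (log2 fold change 0.46, SE 0.088, FDR 0.00335; SD, n = 8). Its exact permutation p was 0.00122, adjusted to 0.0359 over all genes. Ncam2 (chr16:80997585-81425532, plus strand) and Dscam both lie on chromosome 16, which also holds the targeted App gene. The part of the targeted locus in their values was not tested. Nfasc, neurofascin of the axon initial segment and nodes, had a log2 fold change of 0.41 (FDR 0.0802), and Tnr, tenascin-R of the perineuronal matrix, one of 0.41 (FDR 0.0402). Ncam1, Cntn1 and Cntnap2 did not pass, at 0.17, 0.10 and 0.32. Cntn1 had the smallest SE of the members, 0.066, and averaged 29.6 ± 1.97 CPM in WT and 31.8 ± 3.597 CPM in KI.

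Sequence upstream of the start sites was compared because the estimates of all 29 members were above 0, though 12 passed both thresholds. The windows are the 300 bases before the start of 1 transcript of each gene, the one that GENCODE marks as canonical, in the GRCm39 genome, and all 29 members had one. Since a gene can start at several places, the windows of Nrxn3, Lrrtm1 and Cntnap2 lay wholly inside the gene, that of Nrxn3 ending 71628 bases past the first annotated start. The windows of Adgrb3 and Lrrtm4 are shown as contrasting examples, picked after their values were seen, among genes that rose by similar amounts, read 5′ to 3′ on the gene's strand, with capitals on the matches of GGGCGG, the GC box, or its complement CCGCCC (Adgrb3) and of TATAAA or its complement TTTATA (Lrrtm4); adjoining matches can share bases.
Adgrb3, chr1:25869271-25869570, minus strand: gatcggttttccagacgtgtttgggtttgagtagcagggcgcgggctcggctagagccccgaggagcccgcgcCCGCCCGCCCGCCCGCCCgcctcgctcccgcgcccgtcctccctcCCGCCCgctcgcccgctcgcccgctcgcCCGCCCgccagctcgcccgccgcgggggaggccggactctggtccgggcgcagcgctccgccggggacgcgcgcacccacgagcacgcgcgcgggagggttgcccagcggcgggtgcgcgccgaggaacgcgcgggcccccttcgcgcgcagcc
Lrrtm4, chr6:79995560-79995859, plus strand: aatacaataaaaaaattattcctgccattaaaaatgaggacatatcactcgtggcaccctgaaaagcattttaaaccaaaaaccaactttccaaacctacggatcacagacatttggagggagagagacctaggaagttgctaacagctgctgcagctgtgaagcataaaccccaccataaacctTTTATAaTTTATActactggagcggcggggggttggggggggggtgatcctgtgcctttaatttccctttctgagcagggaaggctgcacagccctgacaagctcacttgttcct
The Adgrb3 window holds 55 CpG dinucleotides and 6 GC boxes at 80.7% G and C, and the Lrrtm4 window 4 CpG dinucleotides, 2 TATA matches and no GC box at 45.3%. Their log2 fold changes were 0.70 and 0.65. GGGCGG, on either strand, was in the windows of 10 of the 29 members and 2 of the 12 that rose, against 49.9% of the 13672 protein-coding genes tested with a window. TATAAA was in 2 of 29 (Lrrtm4 and Dscam) against 9.13%, and CACGTG, its own complement, in 1 (Adgrl3) against 8.41%. The cAMP-response motif TGACGTCA, its own complement, was in 0 of 29 against 2.1%. Of the REST half-sites, TTCAGCACC (complement GGTGCTGAA) was in 0 against 0.34% and GGACAGC (complement GCTGTCC) in 0 against 7.32%. The median G and C content was 49.0% for the members and 55.3% for all. A match is only a match of letters, and none of these shares was tested.

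The members are long genes, with a median span of 296922 bases against 19966.5 for all genes tested, and their introns hold other annotated transcripts. GENCODE's class TEC covers single-exon transcripts of unproven status. The table held 67 of them on the strand of their host, and the mean CPM was higher in KI for 66 of the 67. The 45 that passed the low-count filter lay inside 7 members at low levels, between 0.364 and 4.91 CPM, and none overlapped an exon of its host. For 9 of the 45 fewer than 4 of the 8 WT libraries reached 5 counts, so the KI libraries carried them through the filter, and the values of the 45 are given as a description. All 45 had a log2 fold change above 0, 34 passed both thresholds, and the median was 1.16. In other protein-coding genes, under the same filter, the background was high as well: 21.8% of 826 such transcripts rose, with a median of 0.39, and in other genes at least as long as Tnr, the shortest host here at 407961 bases, 44.4% of 180 rose, with a median of 0.84. Transcripts within 1 gene are not independent of each other.

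Many of these transcripts exceeded their host, a comparison made after their values were seen and so not tested. To take the filter out of it, all the same-strand transcripts of a host were summed, whatever their counts, for the 4 hosts with 5 or more. In Cntnap2 the sum of 22 transcripts was 5.34 ± 2.803 CPM in WT and 14.4 ± 6.16 CPM in KI (SD, n = 8), from 1.62 CPM in WT female 2 to 24.8 CPM in KI male 2. As a ratio to the host's own CPM it was 31.9% ± 11.4 in WT and 71.5% ± 20.5 in KI, and the genotypes overlapped between 44.97% and 46.5%. The Cntnap2 gene itself did not pass (0.32, FDR 0.197). The ratio was 36.2% ± 12.9 in WT and 56.2% ± 10.5 in KI for the 9 transcripts of Ctnna2, 94.9% ± 36.2 and 155% ± 32.2 for the 8 of Lrrtm4, and 67.99% ± 13.7 and 87.98% ± 15.2 for the 19 of Adgrb3. Here the genotypes overlapped more widely, from 42.9% to 52.5% in Ctnna2, 109% to 145% in Lrrtm4 and 58.7% to 87.9% in Adgrb3. KI male 2 was the highest and KI male 3 the lowest KI library in all 4 sums, and WT female 2 was the lowest of WT. Whether these counts are unspliced host RNA or transcripts of their own was not tested, and the kit sequences total RNA. Il1rapl1 held 3 processed pseudogenes on its strand that also rose (Gm14774, Gm14776 and Gm8855, named after their values were seen), whose reads could come from near-identical copies elsewhere.

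**Figure D4:**
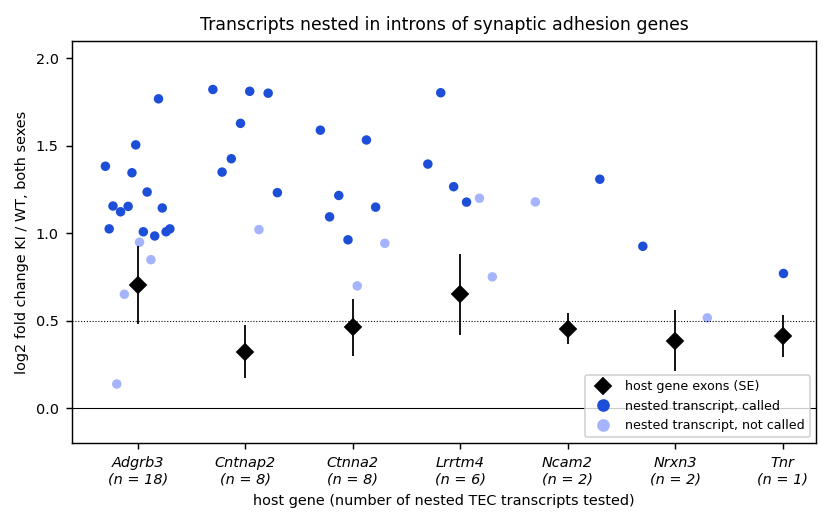
Log2 fold change of KI over WT, both sexes (vertical axis), of the 45 TEC transcripts nested in introns of 7 synaptic adhesion genes (circles, dark blue where called) and of the host gene itself (black diamonds with SE bars), by host. All circles lie above 0, and all those in Cntnap2, Ctnna2 and Lrrtm4 lie above the diamond of their host.

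Within each sex, a fit of the 4 groups was read. In females 8 of the 29 rose (2.82% of all genes rose): Nlgn1, Nlgn3, Cbln2, Clstn2, Slitrk1, Lrfn3, Adgrb3 and Ncam2, with Cbln2 at 1.25 (SE 0.40, FDR 0.0763) the highest of all members. The median in females was 0.57, and all 29 were above 0. In males none passed by edgeR's test, against 0.252% of all genes called either way, and the median was 0.38 with 28 above 0. Lrrtm1 was the exception in males at -0.62 (SE 0.36, FDR 0.533), and at 0.67 in females. The fold change was higher in females for 27 of 29, Lrrc4 and Ncam1 being the others. The share of all genes with a higher fold change in females was not counted. Genes within a library share its source, so the 27 are not independent. The difference itself, the genotype by sex interaction, was passed by none of the members (0.0274% of all genes). By edgeR's test Lrrtm1 had the lowest unadjusted p of the members, 0.0192, at a difference of 1.29 (SE 0.50, FDR 0.696). Markers of other cells moved in females as well: the inhibitory neuron list had a median of 0.52, the projection neuron list 0.45, the astrocyte list -0.58 and the endothelial list -1.02, and WT females 1 and 2 were the libraries that stood apart. Without both of them 1 member passed in females. The part of these markers was not tested. The count in females also depended on single libraries. It was 1 without WT female 1 or KI female 3, 3 without WT female 2, KI female 2 or KI female 4, 4 without WT female 3, 14 without WT male 2, 16 without KI male 3 and 21 without WT female 4. In males 2 passed without KI male 3. All genes called within a sex were not counted in these fits, so the shares to set beside these counts are not known.

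**Figure D5:**
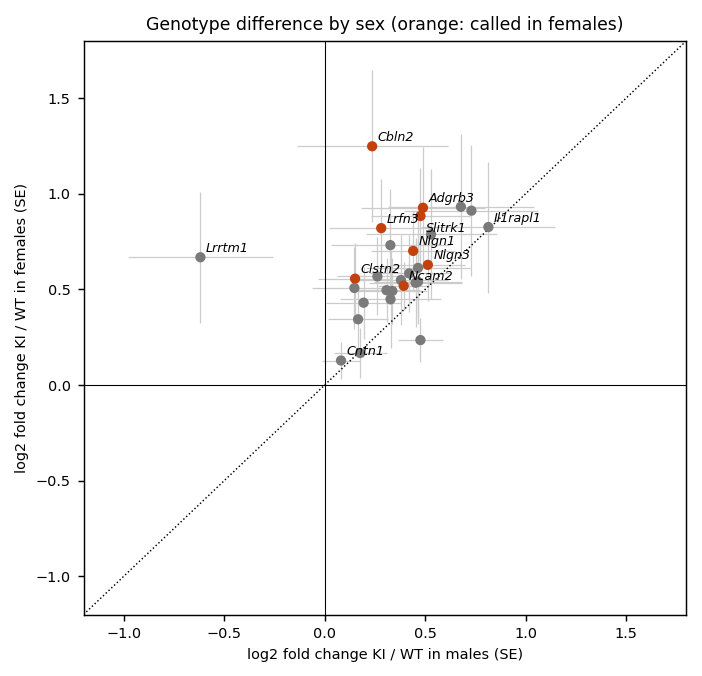
Log2 fold change of KI over WT in females (vertical axis) against males (horizontal axis) for the 29 genes, with SE bars; the dotted line marks equal values and orange points are genes called in females. Lrrtm1 is the single point left of 0, and 27 points lie above the line.

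Between the sexes, no member passed over both genotypes, and 0.0604% of all genes did. None of the 29 had an unadjusted p under 0.05 by edgeR's test. In females 24 of the 29 were lower than in males, against 9152 of all 18227 genes tested. The lowest were Lrfn5 at -0.53 (FDR 0.759) and Lrrtm4 at -0.47 (FDR 0.760). The 12 inhibitory neuron markers were lower in females in 12 of 12 cases, at a median of -0.13. Other marker lists were higher in females, with medians of 0.72 for endothelial cells, 0.28 for astrocytes, 0.18 for olfactory ensheathing cells and 0.17 for oligodendrocytes. The medians of the remaining lists lay between -0.10 and -0.023. The WT sum of the 29 genes was lowest in WT male 2, WT female 1 and WT female 2, at 511, 517 and 529.7 CPM, and lay between 632 and 858 CPM in the other 5 WT libraries.

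The numbers of the libraries, 1 to 16, split into 1 to 8 and 9 to 16, each with 2 libraries of every group. Libraries 1 to 8 are replicates 1 and 2 of each group, and 9 to 16 are replicates 3 and 4. The WT libraries with the lowest sums (WT females 1 and 2 and WT male 2) lie in 1 to 8. The KI library with the lowest sum, KI male 3, lies in 9 to 16. In libraries 1 to 8 alone the median log2 fold change of the members was 0.68 with 29 above 0, and in libraries 9 to 16 alone it was 0.26 with 28 above 0. With this split as a term in the fit 13 members passed, and 1655 of all genes were called against 1574 without it. The labels do not say what the library number stands for.

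Relatives of the members were taken from 6 lists of the same families, and those named here without having passed were picked after their values were seen. Of 103 listed, 98 were tested, 82 had a log2 fold change above 0, 11 rose and none fell, with a median of 0.29; over all genes 49.6% were above 0 and 4.33% rose. Slitrk5 (log2 fold change 0.73, SE 0.16, FDR 0.00772) and Slitrk4 (log2 fold change 0.75, SE 0.16, FDR 0.00561) joined the Slitrk genes above, while Slitrk2 did not pass (0.25, FDR 0.429). Lgi1, a secreted protein that binds ADAM22, was at 0.84 (FDR 0.0227) and Amigo2, an LRR adhesion protein, at 0.61 (FDR 0.0539). Tenm3, a teneurin that binds latrophilins, was at 0.53 (FDR 0.0296), from 58.01 ± 13.4 CPM to 83.9 ± 18.4 CPM (SD, n = 8), the most abundant of the relatives that rose. The contactin family added Cntn6 at 0.91, Cntnap5b at 0.82 and Cntnap3 at 0.64. Cadm3, a nectin-like protein, was at 0.60 and Negr1, of the IgLON family, at 0.53. Ctnna3, given above, was the remaining one.

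By list, 4 of 24 LRR organizers tested rose (Slitrk4, Slitrk5, Amigo2 and Lgi1; median 0.36), 5 of 33 immunoglobulin and matrix genes (median 0.23), 1 of 15 cadherin and catenin relatives (Ctnna3; median 0.21) and 1 of 8 adhesion receptors and teneurins (Tenm3; median 0.28). None of 12 in the neurexin, neuroligin and bridging list passed (median 0.26), nor any of 6 presynaptic phosphatases and Il1rapl relatives (median 0.22). Nothing is read from a single gene in a short list. Ptprs and Ptprd, presynaptic phosphatases known as receptors of Slitrk proteins, had log2 fold changes of 0.15 (FDR 0.253) and 0.084 (FDR 0.767). The most abundant relatives were Ptprs at 212 CPM, Clstn1 at 204 CPM and Adgrb1 at 177 CPM over all libraries, and none of these passed. Ncan, a matrix proteoglycan, was the 1 relative lower at the FDR alone (-0.25, FDR 0.0578).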

How the data were processed

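The deposited table holds raw counts per gene with 1 column per library; per the study's methods, the authors prepared libraries from 6 ng of total RNA with the Takara SMART-Seq Stranded kit, sequenced all of them as 1 pool with paired-end reads and had STAR align and count the reads against GRCm39 and a GENCODE annotation to which human App had been joined. Per the labels the tool was STAR and the build GRCm39 (mm39). The strand column used is not given in the sources used here, and technical replicates, mentioned in a reporting form, have no columns of their own. App itself did not separate the genotypes by level (370.0 to 462 CPM), and all 16 libraries matched their labelled sex.

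The filter asked for 5 or more counts in 50% or more of the libraries (18227 of 57010 genes passed, holding 99.9% of the counts). TMM scaling and edgeR 4.0.16 (R 4.3.3) quasi-likelihood tests were used with genotype and sex as terms, and a fit of the 4 groups gave the contrasts within sex and the interaction. A call needed FDR < 0.1 together with a log2 fold change beyond 0.5 either way. SE is the log2 fold change over the square root of F. Exact permutation tests exchanged genotype within sex (4900 splits, two-sided) on log2 CPM with a prior count of 2, adjusted over all genes tested. Positions, exonic lengths, nested transcripts and windows of 300 bases before canonical starts came from GENCODE vM39 on GRCm39, which matched 55180 genes of the table.

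The members, roles, relatives and marker lists were chosen with earlier results of these data known, so no list was tested as a set. The rule for named genes was all 29 members, with values by library for those called and for the highest per kilobase, and of the relatives every one called. Alternatives were other normalizations, filters and thresholds, DESeq2 1.42.0, limma 3.58.1 voom, sex, library number, replicate number and neuron marker terms, and leaving out each library. The code was tested on simulated counts. Totals of 9052932 to 18117286 counts limit genes such as Cbln2, and the floor of 3 counts covers counting error only.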

Additional observations from a re-analysis of the deposited data

Results flagged for a closer look

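Of 120 sets of 4 libraries (116 of a single gene in a group and 4 of the summed level of the 29 genes), 12 had 1 library far from the other 3, measured as its gap to the nearest divided by the whole range; about 6 would be flagged by chance. KI male 3 was the low library in 6 of them: Lrrtm3 (0.872; 3.27 CPM against 5.61 to 5.95), Clstn2 (0.868; 13.9 against 20.8 to 21.8), Adgrl3 (0.848; 23.3 against 34.9 to 37.03), Magi2 (0.906; 19.9 against 35.3 to 36.8), Dscam (0.8602; 29.8 against 51.8 to 55.4) and Ncam1 (0.892; 62.5 against 88.6 to 91.7). WT male 2 was low for Nlgn1 (0.868; 5.898 CPM against 10.01 to 10.6), Lrrtm3 (0.8294; 2.303 against 4.11 to 4.48) and Slitrk1 (0.851; 5.62 against 9.41 to 10.1). WT female 4 was high for Slitrk3 (0.933; 4.01 CPM against 1.39 to 1.56) and Dscam (0.853; 43.1 against 24.9 to 27.6). WT male 3 was high for Cntn1 (0.853; 33.02 CPM against 27.8 to 28.6). Genes within a library share its source, so these flags are not independent.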

How the results depend on the processing

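All 29 log2 fold changes stayed above 0 and 10 to 16 members rose under RLE scaling, library totals only (16), DESeq2, limma voom, both other filters, no sex term (10) and library number as a term. At FDR below 0.05, 7 members rose, 2 in females; at the FDR alone, 19 members and 2692 of all genes changed, against 12 and 1574. Leaving out 1 library gave 4 to 17 members and 1101 to 2187 of all genes over both sexes. Within a sex it gave 1 to 21 members in females and 0 to 2 in males.

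With the neuron markers as covariate 0 members and 312 genes passed, and Lrrtm1 was at -0.14 and Cntn1 at -0.044. With the inhibitory neuron markers 0 members and 38 genes passed, 10 members were above 0 and the median was -0.030. Log2 fold changes there were -0.22 for Nrxn2, -0.34 for Nrxn3, -0.069 for Nlgn2, -0.027 for Lrrtm1, -0.049 for Lrrtm3, -0.18 for Lrrtm4, -0.056 for Clstn2, -0.25 for Lrfn5, -0.12 for Adgrb3, -0.050 for Adgrl3, -0.030 for Cdh10, -0.15 for Ctnna2, -0.025 for Magi2, -0.078 for Dscam, -0.13 for Ncam1, -0.17 for Nfasc, -0.0034 for Cntn1, -0.16 for Cntnap2 and -0.022 for Tnr. A covariate that differs between the genotypes also removes difference by construction. Without WT females 1 and 2 together 3 members, 1 in females, and 867 genes passed, and Lrrtm1 was at -0.26. Lrrtm1 ranged from -0.13 to 0.25 when 1 library was left out (-0.13 without WT female 1, -0.0087 without WT female 2, -0.033 without KI female 1); the cause was not tested.

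Same-numbered libraries of the genotypes deviated together weakly or not at all (correlations of 0.047 to 0.13 in females and -0.33 to 0.019 in males), and the main fit did not pair them. Whether same-numbered libraries share a source cannot be told from these values. With the replicate block, 13 members rose (Cdh10 was added), 8 in females, the median was 0.51 and 1562 genes were called.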
